A study of Mus musculus with 12 samples.

Results

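Cytosolic ribosomal proteins were measured by 114 probes of 73 genes among the 21004 probes and 15424 gene symbols of the normalized expression table. Members were the probes whose symbol was Rpl, Rplp or Rps (large subunit, stalk or small subunit), a number and at most a short suffix, without the Rps6k kinases, and a few ribosomal proteins with other symbols, such as Fau and Rpl36al, were not taken. By role, 59 probes belonged to the large 60S subunit, 5 to the stalk, 48 to the small 40S subunit and 2 to the paralogs Rpl3l and Rps27l.

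The RNA came from murine hip cartilage of C57BL6 mice labelled as 4 to 6 weeks old, and was hybridized to Illumina BeadChips, arrays that carry probes on coated beads. WT mice and mice lacking Mapk9 (MAPK9 KO), the gene of a JNK family kinase, each gave 3 control and 3 injured samples. Cartilage was injured by pulling off the femoral epiphysis and was then frozen at once (control) or kept in culture for 4 h post injury (injured), so injury and culture cannot be told apart. Each replicate pooled hips of several mice, and the methods describe replicates as independent for control and injured cartilage without naming a genotype. No source used here says whether this covers the Mapk9 KO set, and its p-values may measure technical spread only.

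Ribosomal proteins assemble with ribosomal RNA into the small subunit, which reads the mRNA, and the large subunit, which joins amino acids and carries the flexible stalk that recruits elongation factors. Their mRNAs are among the most abundant in animal cells and many begin with a terminal oligopyrimidine tract, a run of C and T bases right at the transcription start through which mTOR signalling and the binding protein Larp1 set their translation. In cartilage, chondrocytes use ribosomes to make large amounts of collagen and proteoglycan core protein.

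Mapk9 itself was lower in the KO samples. Its probe at base 4211 of the transcript read 10.88, 10.90 and 10.50 log2 units in WT control and 9.14, 9.28 and 9.15 in KO control, a difference of -1.57 ± 0.21 (SE; adjusted p = 0.015, and 0.061 with the replicate number as a block). In the injured samples the same probe differed by -1.57 ± 0.18 (adjusted p = 0.0049). The probe at base 900 was detected in all 3 WT control samples, in 1 WT injured sample and in none of the 6 KO samples. Which part of the gene was deleted is not given in the sources used here. Between 16930 and 18969 probes were detected per array. The 22 probes of chondrocyte genes, among them Col2a1, Sox9 and Agc1 (aggrecan), averaged between 10.02 and 10.81 log2 units on control arrays, and injured arrays gave 11.60 to 11.77, so cartilage markers were present on every array. In such bulk samples fewer cells of a type and less RNA per cell cannot be told apart.

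Promoter windows from RefSeq (GRCm38.p6; 250 bases before to 50 after the start of a transcript) were matched by symbol for 52 of the 73 genes, in 63 windows. A run of at least 8 C or T bases lay within 30 bases of the start in 49.2% of these windows and in 22.9% of all 32851 windows. The letters CCGGAA, on either strand, stood in 46% of the member windows and 14.9% of all windows, AAGATGG in 17.5% and 6.34%, and TATAAA in 7.94% and 13.6%. These matches describe letters only and are no evidence of a bound factor. The stretches below run from 30 bases before the start to 20 bases from it, for the members named as risen in WT that matched a window and for Rpl13a, often used as a reference gene, with the longest run of C and T in capitals.

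Rpl28, chr7:4792935-4792984, plus strand: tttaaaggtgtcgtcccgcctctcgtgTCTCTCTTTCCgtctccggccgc
Rpl13a, chr7:45128726-45128775, minus strand: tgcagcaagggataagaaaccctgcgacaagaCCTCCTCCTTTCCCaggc
Rpl19, chr11:98026894-98026943, plus strand: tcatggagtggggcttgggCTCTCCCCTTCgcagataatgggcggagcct
Rpl19, chr11:98026680-98026729, plus strand: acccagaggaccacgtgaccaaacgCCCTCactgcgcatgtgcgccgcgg
Rps13, chr7:116334171-116334220, minus strand: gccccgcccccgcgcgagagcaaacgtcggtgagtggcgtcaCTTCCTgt
Rps3, chr7:99483690-99483739, minus strand: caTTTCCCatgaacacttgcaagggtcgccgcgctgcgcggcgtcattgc
Rpl24, chr16:55966245-55966294, plus strand: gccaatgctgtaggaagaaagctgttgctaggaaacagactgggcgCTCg

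The longest run was 14 bases in Rpl13a, 11 in Rpl28 and 11 and 5 in the windows of the 2 Rpl19 starts, against 6 in Rps13 and Rps3 and 3 in Rpl24.

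Signals of the members were high. Their mean deposited log2 values ran from 5.68 to 14.26 with a median of 13.36, while the median of all probes was 7.59. Of the 114 probes, 92 lay above the 90th percentile of all probe means and 57 above the 99th percentile (13.37), which 211 probes exceeded. Signal also depends on the probe, so these positions describe brightness and do not rank the mRNAs. On all 12 arrays 112 probes were detected, and the exceptions were the probe of Rps6 at base 1046 (detected on 3 arrays) and that of Rps19 at base 39 (detected on 5).

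Post injury in WT, 7 of 114 probes rose, among them 1 probe each of Rps3, Rps13, Rpl19, Rpl24, Rpl28 and Rpl30, and the paralog Rpl3l fell. Of all probes tested, 12.6% rose and 12.7% fell (25.3% in all) at the same threshold, an adjusted p under 0.05 in limma, a larger share than among the members. The median change of the members was 0.40 log2 units against -0.02 for all probes, and 108 of 114 changes were above 0. By role, 5 of 59 large subunit probes rose (median change 0.40), 0 of 5 stalk probes passed (median 0.38), and 2 of 48 small subunit probes rose (median 0.40). Groups did not overlap, with all injured samples higher, for 26 members, where 20.3% of all probes did so, and with all injured samples lower for Rpl3l, against 20.8%. Among called members Rpl3l alone passed a fold change of 2, as 14.7% of all probes did.

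Rps3, a small subunit protein at the entry of the mRNA channel, had the largest rise of the 114 probes. Its probe at base 121 read 10.80, 11.45 and 10.75 in WT control and 11.69, 12.03 and 11.96 in WT injured samples, a change of 0.89 ± 0.24 (SE, n = 3 per group; adjusted p = 0.021). The injured samples all lay above the control samples. A separate Rps3 probe at base 462 gave 0.71 ± 0.24 (adjusted p = 0.054), and passed with the replicate block (0.029).

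Among large subunit proteins, Rpl28 read 7.01, 7.09 and 6.48 in control and 7.63, 7.92 and 7.67 in injured WT samples at its probe at base 7 (0.88 ± 0.22, adjusted p = 0.017). Rpl19, which helps to bridge the subunits, read 11.74, 12.19 and 11.34 against 12.39, 12.72 and 12.72 at base 507 (0.85 ± 0.25, adjusted p = 0.029). In both of these genes the lowest injured sample was above the highest control sample. Rpl24, another protein that contacts both subunits, read 12.45, 12.56 and 12.11 against 12.81, 13.31 and 13.19 at base 1 (0.73 ± 0.22, adjusted p = 0.035). Rpl30 read 8.01, 8.41 and 8.07 against 8.70, 8.80 and 8.91 at base 35 (0.64 ± 0.20, adjusted p = 0.041). Rps13 read 13.40, 13.38 and 12.89 against 14.10, 13.86 and 13.72 at base 61 (0.67 ± 0.22, adjusted p = 0.049). These groups did not overlap either.

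The count of 7 depended on single arrays. It was 17 without WT control 2, 6 without WT injured 1, 2 without WT control 3, 1 without WT control 1, 1 without WT injured 3 and 0 without WT injured 2. The methods' t-test with adjustment called 0 members in WT (18 at an unadjusted p under 0.05, against 24 in limma). The methods give this test for metabolite features, and it was run here on the probes without a fold limit. Rpl28 at base 7 passed in 12 of 15 alternative settings, more than the other risen probes, which passed in 6 to 9.

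Other members with well known roles did not pass, and those other than Rps6 had WT changes between 0.26 and 0.60. Rpl5 and Rpl11, which bind Mdm2 when free of the ribosome, changed by 0.36 and 0.52 (both Rpl5 probes) and 0.33 in WT. Rpl32 and Rpl13a, common reference genes, changed by 0.38 and 0.60. For Rps18, another reference gene, the values were 0.30 and 0.41 at bases 455 and 212. The ubiquitin fusion gene Rps27a gave 0.38 and 0.26. The stalk genes Rplp1 and Rplp2 gave 0.29 to 0.43 over 5 probes. None of these passed at an adjusted p under 0.05, and Rpl13a had the highest value (adjusted p = 0.11) and passed with all 12 arrays in the fit and without WT control 2.

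**Figure D1:**
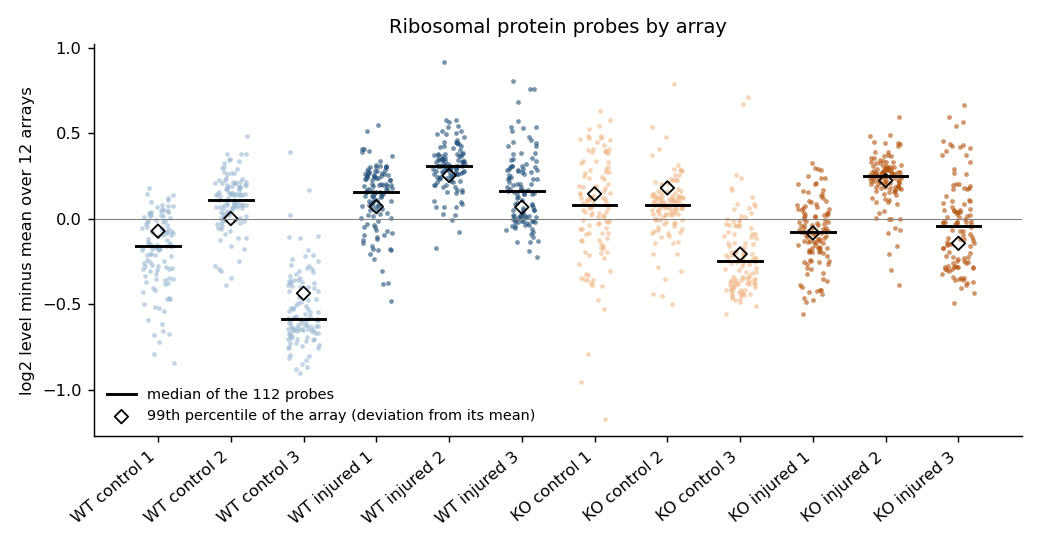
Log2 level of each of the 112 member probes without the paralogs, minus its mean over the 12 arrays (y axis), for each array (x axis). Bars are medians and diamonds the 99th percentile of all probes on that array, minus its mean over arrays. The third WT control array was lowest in both, with a member median of -0.59, and medians of all other arrays lay between -0.25 and 0.31. Members are among the probes that set the percentile.

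The members were mostly on one side of their own means on some arrays and split on others. Their median deviation from the mean over all arrays was -0.16, 0.11 and -0.59 on the WT control arrays and 0.16, 0.31 and 0.16 on the WT injured arrays. It was 0.08, 0.08 and -0.25 on the KO control arrays and -0.08, 0.25 and -0.04 on the KO injured arrays. The lowest value belonged to WT control 3, where 3 of 112 probes were above their own mean, and the highest to WT injured 2, with 109. On KO control 1, KO injured 1 and KO injured 3 it was 69, 36 and 45 of 112, and control and injured KO arrays overlapped. After neqc the median deviations were -0.13, 0.07 and -0.09 on the WT control arrays and 0.02, 0.06 and 0.12 on the WT injured arrays. They were -0.04, -0.04 and -0.01 on the KO control arrays and -0.04, 0.03 and 0.10 on the KO injured arrays. Control and injured arrays then overlapped in both genotypes. The 99th percentile of all deposited values was also lowest on WT control 3, at 13.01, and lay between 13.24 and 13.70 on the other arrays. Of the 211 probes above the 99th percentile of probe means 57 were members, so this percentile is no separate measure of the arrays. Without WT control 3 the median WT change of the members was 0.22. With the other WT arrays left out in turn it ran from 0.35 (without WT injured 2) to 0.55 (without WT control 2). With replicate 3 left out of every group it was 0.24.

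On the deposited values the shift in bright members was close in size to that of other bright probes, and it was smaller after neqc. At a mean level of 13 or above, 66 members had a median WT change of 0.39 and 248 other probes one of 0.34. After neqc, a background correction followed by quantile normalization of the deposited intensities, the medians were 0.05 and -0.01. Quantile normalization gives every array the same distribution, and 57 of the 211 probes above the 99th percentile of probe means were members. A rise shared by bright probes would therefore shrink after neqc too. Below a level of 13 members and other probes stood further apart. At 9 to 12 log2 units the 20 members had a median of 0.45 against 0.06 for 5380 other probes, and 0.33 against -0.04 after neqc. Under 9 units the 13 members had 0.36 against -0.08, and 0.45 against -0.02 after neqc. Over all 114 members the median after neqc was 0.10, with 95 changes above 0, and 4 members rose (Rps3 at base 121, Rpl28 at base 7, Rpl19 at base 507 and Rpl30 at base 35), while 27% of all probes were called. Differences between members and other probes at one level were not tested.

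**Figure D2:**
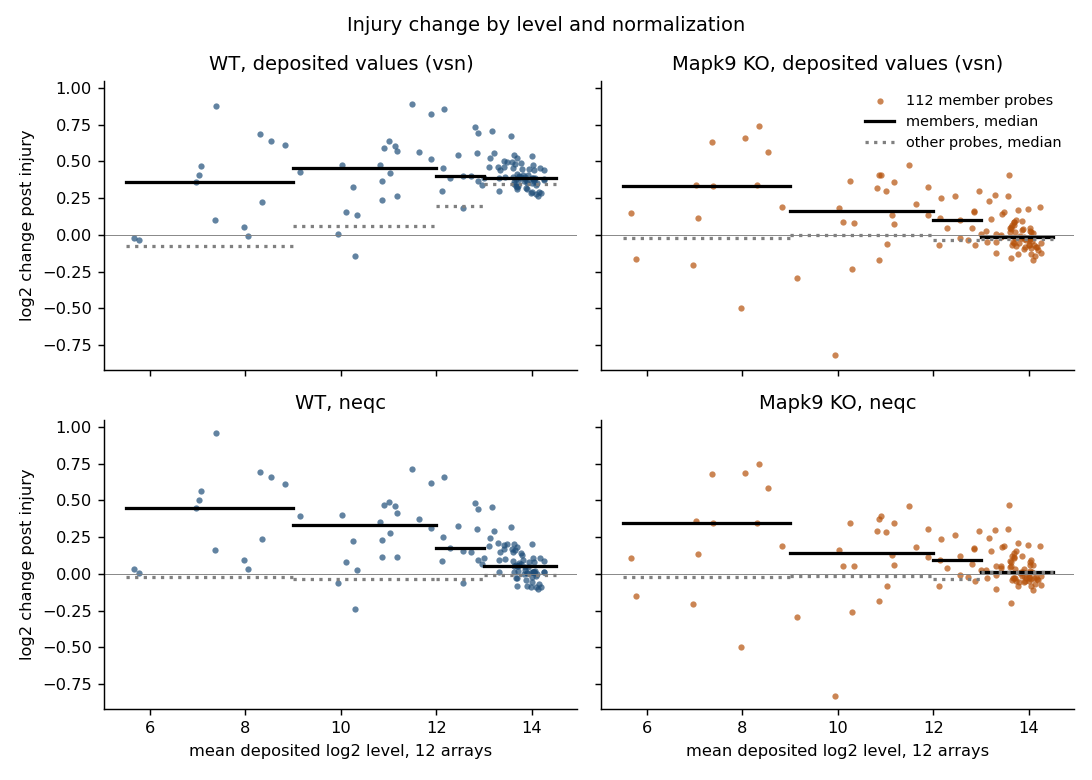
Log2 change post injury (y axis) of 112 member probes against their mean deposited log2 level over 12 arrays (x axis), for WT and Mapk9 KO, on the deposited values and after neqc. Black lines are medians of the members and dotted grey lines medians of the other probes in the same range of levels. In WT the lines above 13 lay at 0.39 and 0.34 on the deposited values and at 0.05 and -0.01 after neqc.

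Among cell type markers some lists were called more often than all probes (25.3% in WT and 38.3% in KO) and others were not. Called in WT and KO were 64.3% and 57.1% of neutrophil and marrow probes and 84.6% and 92.3% of macrophage probes. For chondrocyte probes it was 72.7% in both, and for adipocyte probes 50% and 75%. For erythroid probes it was 0% and 6.25%, for osteoblast probes 15.4% and 23.1%, and for endothelial probes 25% and 12.5%. Of 14 neutrophil and marrow probes 9 rose in WT (median 1.18) and 8 in KO (0.79), their mean running from 11.29 to 11.79 on WT control arrays, 12.61 to 12.86 on WT injured arrays, 11.85 to 12.01 on KO control arrays and 12.61 to 13.03 on KO injured arrays. Of 13 macrophage probes 3 rose and 8 fell in WT (median -1.30), and 3 rose and 9 fell in KO (-1.40), their mean running from 8.72 to 9.25 on WT control arrays, 8.46 to 8.63 on WT injured arrays, 8.93 to 9.19 on KO control arrays and 8.28 to 8.45 on KO injured arrays. Of the 16 erythroid probes limma called 0 in WT and 1 in KO (1 and 1 at an unadjusted p under 0.05). Their medians were 0.31 in WT and -0.08 in KO, with a median interaction of -0.39. Their mean was 12.74 to 13.42 on WT control arrays, 13.29 to 13.50 on WT injured arrays, 13.17 to 13.57 on KO control arrays and 13.003 to 13.45 on KO injured arrays. In the other marker lists the median interaction was -0.49 for neutrophil and marrow, -0.34 for macrophage, -0.43 for osteoblast and -0.10 for endothelial probes. It was -0.75 for adipocyte, -1.55 for skeletal muscle and 0.24 for chondrocyte probes. Of 22 chondrocyte probes 15 rose and 1 fell in each genotype (medians 1.13 in WT and 1.34 in KO). Of 4 adipocyte probes 2 fell in WT and 3 in KO (medians -1.44 and -1.91), of 13 osteoblast probes 2 fell in WT and 3 in KO (medians -0.05 and -0.38), and of 8 endothelial probes 2 rose in WT and 1 in KO (medians 0.14 and 0.19). The part of these cells in the members' changes was not tested.

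Post injury in Mapk9 KO, the median change of the members was 0.03 log2 units and 65 of 114 changes were above 0. With single KO arrays left out the median ran from -0.10 (without KO injured 2, 40 above 0) to 0.11 (without KO control 1, 90 above 0). The 13 members under 9 units had a median change of 0.33 against -0.02 for other probes (0.34 after neqc), and the 20 members at 9 to 12 units 0.16 against 0.00. At 13 or above the 66 members had -0.01 against -0.03, so the dimmer members were the ones with the higher median. Rps13, Rps24 and Rpl30 rose at 1 probe each, and Rpl38 and Rpl3l fell at 1 probe each, where 19% of all probes rose and 19.3% fell (38.3% in all). Rpl3l alone passed a fold change of 2, against 18.7% of all probes. With the replicate block 4 members fell, Rps27l (adjusted p = 0.049) and Rpl21 at base 1529 (0.024) being added. With quantile normalization and no background correction 12 rose and 4 fell, where 43.7% of all probes were called. The count of 3 risen members was 1 without KO control 1, 1 without KO control 2 and 1 without KO injured 3, while the methods' t-test called 1 in each direction. By role, 1 of 59 large subunit probes rose and 1 fell (median 0.04), 0 of 5 stalk probes passed (median -0.10) and 2 of 48 small subunit probes rose (median 0.03). Groups did not overlap for 11 members that were higher and 3 that were lower, against 24.5% and 25.2% of all probes.

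The probe of Rps13 at base 20 read 7.38, 7.84 and 7.98 in KO control and 8.55, 8.34 and 8.53 in KO injured samples (0.74 ± 0.20, adjusted p = 0.013). Rps24, a small subunit protein mutated in some Diamond-Blackfan anaemias, read 7.53, 7.62 and 7.82 against 8.35, 7.98 and 8.63 at its probe at base 3449 (0.66 ± 0.20, adjusted p = 0.025). Rpl30 at base 35 read 8.45, 8.33 and 8.14 against 8.82, 8.79 and 8.99 (0.56 ± 0.17, adjusted p = 0.025). It was the only risen probe called in both genotypes, with all 6 injured samples above all 6 control samples. Rpl38, a large subunit protein known for its part in translating Hox mRNAs, read 10.34, 10.71 and 9.93 in KO control and 9.46, 9.63 and 9.43 in KO injured samples at base 28 (-0.82 ± 0.21, adjusted p = 0.012).

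**Figure D3:**
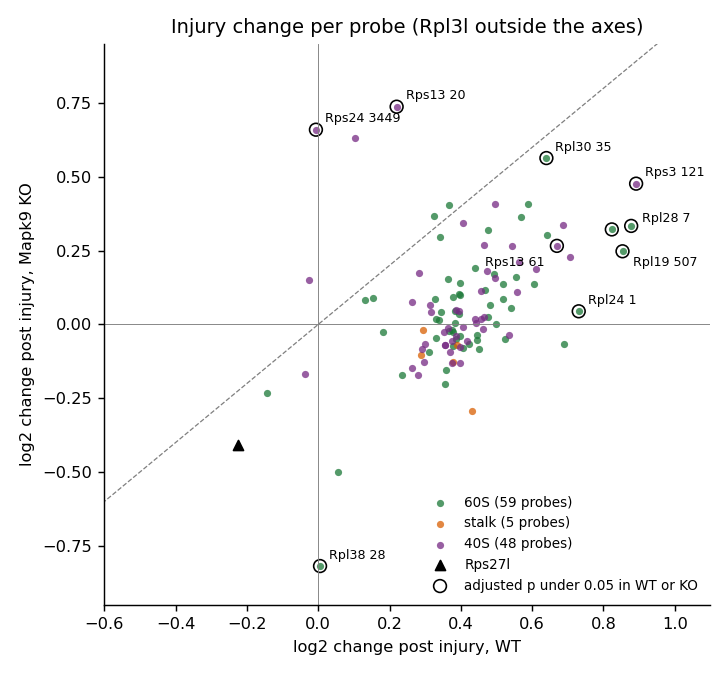
Log2 change post injury of each member probe in WT (x axis) and in Mapk9 KO (y axis), coloured by role, with Rpl3l outside the axes. Circled probes passed an adjusted p under 0.05 in WT or KO, labels give the gene and base of those named in the text, and the dashed line marks equal change. Most points gathered near 0.4 in WT and near 0 in KO, below the line.

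Change in KO was lower than change in WT for 108 of 114 members, with a median difference of -0.39 log2 units. Without WT control 3 the median was -0.20, with 18 above 0. With the other arrays left out in turn it ran from -0.55 (without WT control 2) to -0.31 (without KO control 1). For no member did limma call the interaction (0 of 114; 5 at an unadjusted p under 0.05), and 0% of all probes passed. With the replicate block 0 members passed too, 24 having an unadjusted p under 0.05, and 0.533% of all probes passed. After neqc the median difference was -0.07, with 36 of 114 above 0. The smallest p-values belonged to Rpl3l (-1.88 ± 0.67, adjusted p = 0.38) and Rps24 at base 3449 (0.67 ± 0.27, adjusted p = 0.43). Averaged over both genotypes, 17 members rose and 1 fell by limma, against 22.6% and 24.2% of all probes (46.7% in all), and with the replicate block 34 rose and 3 fell (32.5% of the members), where 53.8% of all probes were called. Changes in WT and KO correlated across the members with a Pearson r of 0.41 over the 113 probes without Rpl3l and 0.81 with it. The probes share their arrays and are no independent replicates.

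Without injury, members were a median of 0.20 log2 units higher in Mapk9 KO than in WT control samples, and 106 of 114 differences were above 0. Post injury the median difference was -0.20, with 12 of 114 above 0. The former comparison shares the WT control arrays with the injury comparison in WT. By limma 0 members were called in either (4 at an unadjusted p under 0.05 in control samples and 1 in injured samples), where 0.119% and 0.181% of all probes were called, and the methods' t-test also called 0 (2 and 1). After neqc the medians were 0.03 and -0.03, with 70 and 36 of 114 differences above 0. Without WT control 3 the median in control samples was 0.01. With the other control arrays left out in turn it ran from 0.14 (without KO control 1) to 0.34 (without WT control 2). The difference post injury ran from -0.31 (without KO injured 2) to -0.13 (without KO injured 3, with 22 above 0). The smallest p-values in the control samples were those of Rpl3l (1.55 ± 0.48, adjusted p = 0.59) and Rps13 at base 20 (-0.73 ± 0.23, adjusted p = 0.59). In the injured samples they were those of Rpl38 at base 28 (-0.44 ± 0.16, adjusted p = 0.31) and Rpl19 at base 507 (-0.37 ± 0.18, adjusted p = 0.43).

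Several probes were present for 32 genes, with 73 probes in all. Changes of one gene's probes had the same sign in 28 of the 32 genes in WT and in 19 in KO, where most changes lay near 0. In WT 108 of 114 member changes were above 0, so probes of different genes would mostly share a sign too. The unlike signs of Rps6 and Rps19 in WT came from their probes that were detected on few arrays. The difference between the lowest and highest probe of a gene had a median of 0.15 log2 units in WT and 0.19 in KO, and was under 0.2 in 20 and 16 genes. Over the 66 members at a level of 13 or above, whatever their gene, WT changes had an SD of 0.09. Probes of different genes were not compared in this way. No gene had all of its probes called in either comparison, while 6 genes had some called in WT and 4 in KO. The pairs of Rpl12 (0.50 and 0.55), Rps7 (0.37 and 0.41) and Rpl7a (0.37 and 0.34) were close in WT (named after their values were seen), and the Rpl12 probes share 43 of their 50 bases.

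**Figure D4:**
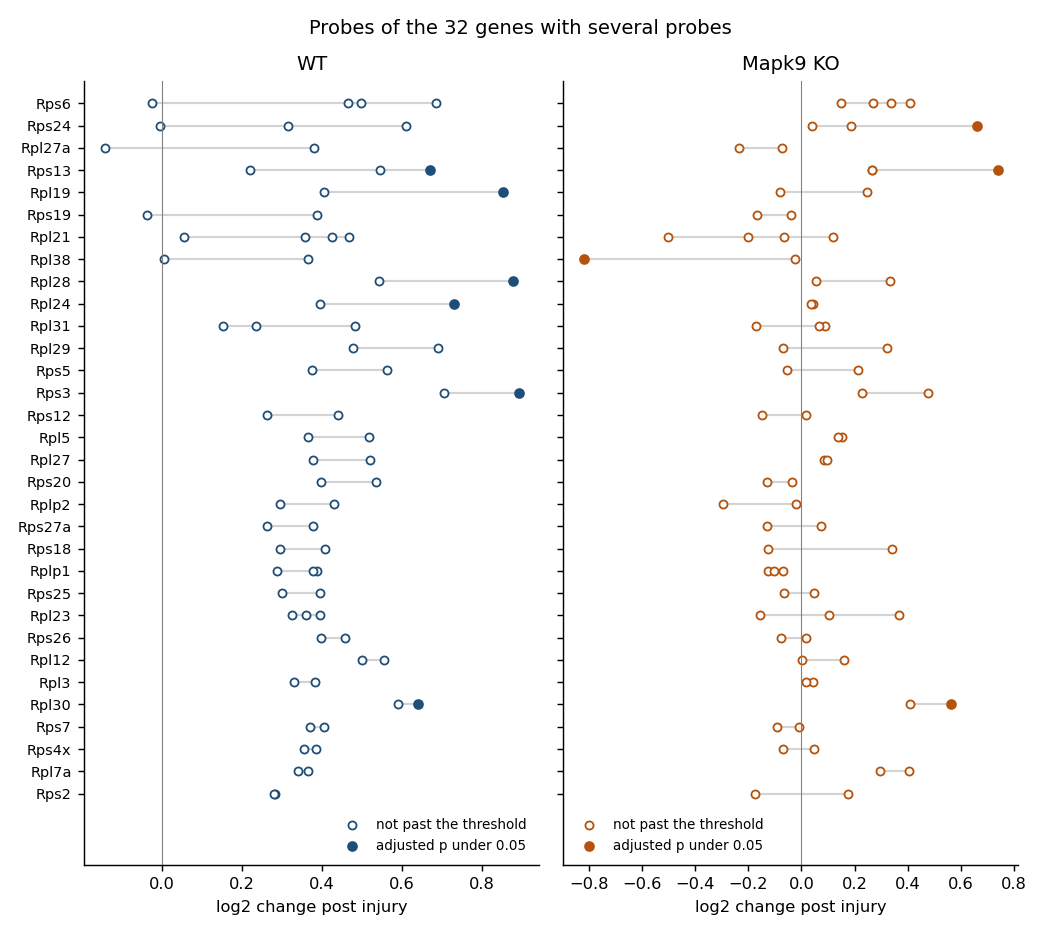
Log2 change post injury (x axis) of every probe of the 32 genes with several probes (rows), in WT and Mapk9 KO, with rows ordered by the difference between probes in WT. Filled points passed an adjusted p under 0.05. Rps6 had the widest spread in WT (0.71) and Rpl38 in KO (0.80). The lowest Rps6 change in WT came from a probe that was not detected on most arrays.

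Of the 6 genes with the widest spread in WT the first was Rps6, the small subunit protein phosphorylated by S6 kinase, whose probes at bases 6, 61, 743 and 1046 changed by 0.46, 0.50, 0.69 and -0.03. The last of these was the probe detected on 3 arrays, and the signal table names it 1700065A05Rik. The first place of Rps6 rests on this probe, as its other probes ran from 0.46 to 0.69. With the replicate block the probe at base 743 passed (adjusted p = 0.027). Rpl27a had 0.38 and -0.14 at bases 450 and 833, and Rpl19 had 0.85 and 0.41 at bases 507 and 599. Of the 114 member probes 39 carry another name in the signal table, mostly that of a predicted gene. At least 25 bases were shared with a probe of another symbol by 3 members. Processed copies of ribosomal protein genes are common in the mouse genome, and whether RNA of such copies was part of a member's signal was not tested.

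Probes could be placed only within the promoter windows, where 2 member probes matched. The probe of Rpl38 at base 28 matched the promoter window of its gene from 28 bases before the RefSeq start to 22 bases from it, and that of Rps19 at base 39 matched its own window entirely before the start, from base -160 to base -111. Rps19 is mutated in many Diamond-Blackfan anaemias. Both sequences follow, with bases from the start onwards in capitals, beside the second Rps19 probe.

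Rpl38 at base 28: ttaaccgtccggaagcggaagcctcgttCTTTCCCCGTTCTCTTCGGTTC
Rps19 at base 39: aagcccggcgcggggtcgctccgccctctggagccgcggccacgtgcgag
Rps19 at base 412: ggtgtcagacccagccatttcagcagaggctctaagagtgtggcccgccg

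In KO the 2 probes of Rpl38 changed by -0.82 (base 28) and -0.02 (base 295), and in WT by 0.00 and 0.37. The second probe read 14.30, 13.76 and 13.49 in KO control and 13.90, 14.01 and 13.57 in KO injured samples, and these groups overlapped. The Rps19 probe at base 39 read 5.29 to 6.46 over the 12 arrays and changed by -0.04 in WT and -0.17 in KO, against 0.39 and -0.04 at base 412.

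Rps13 and Rps24 held the other wide spreads. Their probes are shown because those at base 20 and base 3449 rose in KO while their partners did not pass there, and the Rpl30 probe at base 35 because it passed in both genotypes. Capitals mark GTGAGT, letters often found at the start of an intron, which (or GTAAGT) 2 of 114 member probes and 1.65% of all probes contain.

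Rps13 at base 20: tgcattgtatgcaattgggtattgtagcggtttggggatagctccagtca
Rps13 at base 279: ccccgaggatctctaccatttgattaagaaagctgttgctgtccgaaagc
Rps24 at base 3449: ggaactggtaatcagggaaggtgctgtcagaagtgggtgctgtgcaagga
Rps24 at base 409: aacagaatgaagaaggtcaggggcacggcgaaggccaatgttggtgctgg
Rpl30 at base 35: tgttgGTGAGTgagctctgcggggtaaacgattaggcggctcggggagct

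In WT the Rps13 probes at bases 20, 61 and 279 changed by 0.22, 0.67 and 0.54, and in KO by 0.74, 0.27 and 0.27. Only the probe at base 61 passed in WT and only the one at base 20 in KO. The Rps24 probes at bases 409, 723 and 3449 changed by 0.32, 0.61 and -0.01 in WT and by 0.04, 0.19 and 0.66 in KO. Before injury the probes Rps13 at base 20 and Rps24 at base 3449 were lower in KO than in WT (-0.73 and -0.48), as was the single probe of Rps15a at base 5024 (-0.72; named after its value was seen), without passing the test (adjusted p = 0.59, 0.75 and 0.72).

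The paralogs were 1 probe each of Rpl3l and Rps27l. Rpl3l, a form of Rpl3 that skeletal and heart muscle use, read 10.57, 10.08 and 12.40 in WT control and 8.23, 9.02 and 9.22 in WT injured samples (-2.19 ± 0.51, adjusted p = 0.011). It read 12.52, 12.80 and 12.39 in KO control and 8.53, 9.03 and 7.92 in KO injured samples (-4.08 ± 0.26, adjusted p = 1.21e-06). All injured samples lay below all control samples in both genotypes. Rpl3 itself changed by 0.38 and 0.33 in WT and by 0.04 and 0.02 in KO. Rps27l, a p53-induced form of Rps27, changed by -0.23 ± 0.28 in WT and -0.41 ± 0.22 in KO (adjusted p = 0.60 and 0.18), against 0.44 and 0.00 for Rps27.

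Skeletal muscle markers moved with Rpl3l. Of their 27 probes (20 genes), 25 fell in WT and 27 in KO. Their mean ran from 10.37 to 12.36 on the WT control arrays, 12.36 to 12.62 on the KO control arrays, 7.43 to 9.49 on the WT injured arrays and 7.94 to 8.97 on the KO injured arrays, with 3 probes undetected on every array of each injured group. WT control 3 was the highest WT array for both Rpl3l and the markers. Without it the KO control samples exceeded the WT control samples in Rpl3l by 2.24 (adjusted p = 8.16e-04 in place of 0.59) and the interaction was called (-2.57, adjusted p = 0.013). Whether muscle RNA made up the Rpl3l signal was not tested.

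**Figure D5:**
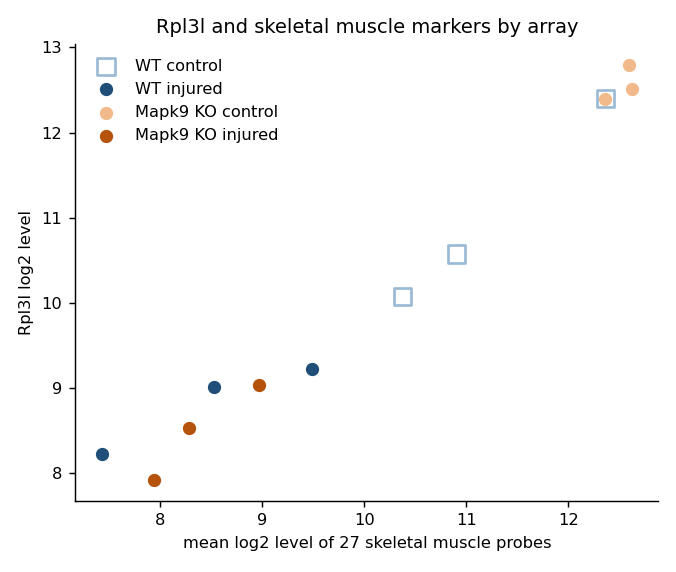
Log2 level of Rpl3l (y axis) against the mean log2 level of 27 skeletal muscle probes (x axis) on the 12 arrays, by group. Both ran from the injured arrays (Rpl3l 7.92 to 9.22) to the control arrays (10.08 to 12.80), and the third WT control array lay on a KO control array.

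Related gene groups gave a mixed picture. Of ribosome biogenesis factors (35 probes, 25 genes), 9 rose and 0 fell in WT, and 12 rose and 1 fell in KO, with median changes of 0.51 and 0.38. In either direction 25.7% and 37.1% of the list were called, against 25.3% and 38.3% of all probes, and of all probes 12.6% rose in WT and 19% in KO. Nol5a, a core protein of the small nucleolar particles that guide ribosomal RNA methylation, changed by 1.13 in WT and 1.08 in KO (adjusted p = 0.0065 and 5.07e-04), and Fbl, the methylase itself, by 0.90 and 0.30 (adjusted p = 0.010 and 0.23). Noc2l and Nob1, a ribosome export factor and a nuclease of the small subunit RNA, rose in both genotypes by 0.63 to 0.90 (Nob1 at base 1296).

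Among 9 probes of regulators of ribosomal protein mRNA translation, 4 rose in WT and 5 in KO and none fell, where 12.6% and 19% of all probes rose, with 5 and 5 at an unadjusted p under 0.05. Ddit4, a stress-induced inhibitor of mTOR signalling, rose by 2.87 in WT and 2.83 in KO. Sesn2, an inhibitor of the same pathway, rose by 1.74 and 1.93 at base 2302. Eif4ebp1, the translation repressor that mTOR inactivates, rose by 1.28 and 1.06.

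Mitochondrial ribosomal proteins (101 probes, 66 genes) showed 5 rises and 4 falls in WT and 4 rises and 31 falls in KO, with medians of -0.10 and -0.39. The called shares were 8.91% and 34.7%, against 25.3% and 38.3% of all probes. By direction 12.6% of all probes rose and 12.7% fell in WT, and 19% rose and 19.3% fell in KO. Groups did not overlap, with all injured samples lower, for 19 of the 101 probes in WT and 50 in KO, against 20.8% and 25.2% of all probes. All injured samples were higher for 10 and 6, against 20.3% and 24.5%. With the replicate block 9 fell in WT and 42 in KO. Mrps6 rose by 1.40 in WT and 1.46 in KO. Mrpl38 rose by 1.07 and 1.11 at base 349, while its probe at base 1567 gave 0.20 and -0.22 (adjusted p = 0.51 and 0.35). Mrps18b rose at all 3 of its probes in WT, by 0.95 to 1.00, and in KO at those at bases 133 and 134 (0.64 and 0.83) but not at base 797 (0.25, adjusted p = 0.27). Mrpl55 and Mrpl22 fell by 0.96 and 0.81 in KO, and gave -0.29 and -0.21 in WT (adjusted p = 0.34 and 0.44).

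Translation factors whose mRNAs start like those of ribosomal proteins (22 probes, 11 genes) showed 0 rises and 1 fall in WT, with 5 at an unadjusted p under 0.05, and 3 rises and 0 falls in KO. The called shares were 4.55% and 13.6%, against 25.3% and 38.3% of all probes. The fall was that of the poly(A) binding protein gene Pabpc1 at base 455 (-0.67, adjusted p = 0.023), and with the replicate block 3 probes fell in WT, 5 rose in KO and 1 was called for the interaction. Eif4b at base 663 (0.88) and 2 probes of elongation factor Eef2 (0.82 and 0.83) rose in KO, and changed by -0.33, -0.30 and -0.34 in WT. The ribosomal proteins Fau and Rpl36al, which the rule did not take, gave 0.39 and 0.37 in WT and 0.10 and -0.14 in KO (adjusted p = 0.35 and 0.33 in WT, and 0.77 and 0.69 in KO).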

How the data were processed

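The authors deposited bead intensities for 45281 probes with a detection p-value each, and log2 values for 21004 probes after background correction with negative control probes and vsn normalization. No columns of the authors' own comparisons were present. Control and injured samples were grouped by their labels. All probes were tested with limma 3.58.1 (lmFit, eBayes) in R 4.3.3, 6 arrays per comparison and all 12 for the interaction and the average, with Benjamini-Hochberg adjustment over all probes. Called means an adjusted p under 0.05, and detected a detection p under 0.05. With 3 arrays against 3 an exact permutation test of 1 probe could not go below a two-sided p of 0.1. The number of arrays limits the precision. The base named with a probe is its start in the source transcript as the array annotation gives it. Probe positions in the genome are not printed because no build is named.

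The members and gene lists were chosen with earlier results of these data known. The values of some genes are not reported here. The text names members called in an injury comparison, the smallest p-values for genotype and interaction, the 6 genes whose probes differed most in WT, members with well known roles, the paralogs, and up to 4 genes of each related list (more for the mitochondrial ribosomal proteins). Rplp0 was among the well known roles but stands under an older symbol in the table, and 9 probes that carry a member's name in the signal table only were not counted.

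Replicate numbers of the labels pair the samples: deviations from group means correlated between 0.153 and 0.390 in the 18 pairs with the same number, and between -0.289 and 0.0825 in 36 others. Alternatives were a fold limit of 2, each array left out in turn, the methods' t-test, a fit of all 12 arrays, a block for the replicate number or for the number in the label code, subtraction of array medians, a filter that kept probes detected on 3 arrays or more, neqc with an offset of 16, and quantile normalization of uncorrected intensities. Scripts were tested on simulated data.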

Additional observations from a re-analysis of the deposited data

How the results depend on the processing

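Counts of called ribosomal protein probes depended on the processing. In WT, 7 rose, against 4 with neqc, 15 with all 12 arrays in the fit, 0 by the methods' t-test, 0 with a fold limit of 2, and 0 to 17 with single arrays left out. The 1 fall in WT, Rpl3l, was lost by the methods' t-test alone (0) and was 1 throughout with single arrays left out. In Mapk9 KO, 3 rose, against 12 with quantile normalization without background correction, 1 by the methods' t-test, 0 with a fold limit of 2, and 1 to 3 with single arrays left out. There 2 fell, against 4 with quantile normalization, 1 by the methods' t-test, 1 with a fold limit of 2, and 2 to 3 with single arrays left out. For genotype in control samples 0 were called, and 0 to 1 with single arrays left out; for genotype in injured samples 0 were called throughout; and for the interaction 0 to 1 were called. Averaged over both genotypes 18 were called, against 1 with a fold limit of 2 and 12 to 33 with single arrays left out. The setting without replicate 3 of any group was chosen after seeing the data, and gave 0 rises and 1 fall in WT, 1 call for genotype in control samples and 7 for the average. With the replicate number as a block 4 fell in Mapk9 KO and 37 were called for the average, 10 rose in WT, and the pairing changed no other call among the members beyond those given above. The direction of the 13 changes called in the 2 injury comparisons was kept in these settings. Signal limits the 2 members that were detected on only 3 and 5 arrays.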
